A study of Mus musculus with 6 samples.

Results

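A set of 8 transcription factors that define the Sertoli cell, the somatic cell that nurses germ cells inside the seminiferous tubule, were followed through the loss of the retinoblastoma gene Rb1: Sox9, Sox8, Wt1, Gata4, Gata1, Nr5a1, Nr0b1 and Dmrt1. Every probe whose platform annotation gave 1 of these 8 symbols was taken, which gave 11 of 45281 array probes, for 7 of the 8 genes. No probe was annotated to Wt1, which was not analysed here. The cells came from mice aged 6 weeks on a C57B6J/129SvEv background, were labelled by Sox9-GFP and sorted by fluorescence. The 3 Rb cKO samples had the genotype Rb1 flox/- with Amh-Cre, in which Cre recombinase is driven by the promoter of the Sertoli cell hormone gene Amh. The 3 Control samples were Rb1 flox/- without Cre, so both groups carry a null allele and the controls keep 1 intact, floxed copy. Cre itself was present in the cKO samples only, and its effect cannot be told apart from that of Rb1 loss. The labels leave unsaid whether arrays came from separate animals or pools, so the error behind each p-value is that among these samples and may be technical.

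In the embryonic gonad WT1, GATA4 and NR5A1 act early and prepare the activation of Sox9, and SOX9, backed by its close relative SOX8, turns the supporting cell precursor into a Sertoli cell. NR0B1, also called DAX1, is an orphan receptor that opposes or tunes NR5A1, and DMRT1 keeps the male programme in place after birth by holding down ovarian genes. GATA1 appears in Sertoli cells after birth. The protein of Rb1 binds E2F factors and represses their targets. In these data the comparison asks whether the factors that hold Sertoli identity differ in level once Rb1 is deleted.

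Because the proteins that RB1 restrains act at promoters, the upstream windows of the members were read from RefSeq (GRCm38.p6). Of the 8 members, 3 had a window in the table, and the 250 bases before the annotated start are shown for each, 5′ to 3′ on the gene's strand. Capitals mark a searched motif. The Sox8 window lies at chr17:25570687-25570936 on the minus strand, that of Gata1 at chrX:7967911-7968160 on the minus strand, and that of Nr0b1 at chrX:86191525-86191774 on the plus strand.
Sox8: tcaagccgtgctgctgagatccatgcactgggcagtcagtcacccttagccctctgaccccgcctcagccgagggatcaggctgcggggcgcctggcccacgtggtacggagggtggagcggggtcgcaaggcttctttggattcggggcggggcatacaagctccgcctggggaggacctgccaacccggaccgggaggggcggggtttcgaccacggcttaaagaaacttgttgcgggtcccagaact
Gata1: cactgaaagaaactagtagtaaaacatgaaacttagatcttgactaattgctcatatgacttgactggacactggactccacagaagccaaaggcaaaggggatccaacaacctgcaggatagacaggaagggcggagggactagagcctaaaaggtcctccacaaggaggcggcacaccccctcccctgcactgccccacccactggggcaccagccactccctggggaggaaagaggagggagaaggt
Nr0b1: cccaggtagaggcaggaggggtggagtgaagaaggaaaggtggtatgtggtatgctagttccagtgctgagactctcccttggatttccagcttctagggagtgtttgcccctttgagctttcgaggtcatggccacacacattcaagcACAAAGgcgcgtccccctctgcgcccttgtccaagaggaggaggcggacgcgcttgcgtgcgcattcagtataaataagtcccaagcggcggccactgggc
The Sox8 window was 65.6% G or C, against 54.0% for Gata1, 57.2% for Nr0b1 and a median of 52.4% over 32851 windows. The E2F motifs TTGGCGC and TTCCCGC, searched on both strands, stood in none of the 3, and in 2.0% and 3.8% of all windows. The SOX motif ACAAAG was found once, in Nr0b1 at 101 bases before the start, and in 16.5% of all windows. The SOX motif ACAATG was in none of the 3 windows and in 10.7% of all. The motif AGATAA, bound by GATA factors, was in none of the 3 and in 10% of all. The motif TGATAA, of the same factors, was in none and in 7.9% of all. The NR5A1 motif AAGGTCA was in none and in 4.1% of all. A match is a description of letters, and its absence says only that these letters are not in this window. Gata1 is known to start at a different first exon in Sertoli cells than in blood cells, and which start this window belongs to was not determined.

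Between 43.0% and 53.5% of probes were detected per array, each read by 43 to 44 beads at the median. The arrays of cKO replicate 1 and Control replicate 3 lay at opposite ends of the first principal component, at -113.9 and 110.2, while the other 4 lay between -34.3 and 31.4, so each member is also given without those 2 arrays. Rb1 gave lower values in cKO on both of its probes, by -1.22 ± 0.32 (SE) and -0.98 ± 0.34 log2 units with adjusted p of 0.399 and 0.668 in limma. Whether those probes lie in the deleted part was not determined. Sertoli markers outside the member set were checked against the cell label. The genes Cldn11, Rhox5 and Cst12 were detected on all 6 arrays, with Cldn11 between 14.40 and 14.61 on the normalised log2 scale. Of the 11 annotated Sertoli markers, 9 were detected on all 6 arrays, Trf on 5 and Kitl on 1. Germ cell markers were as bright, with Ldhc at 14.66 to 14.90 and Prm1 at 14.72 to 14.90. The check therefore shows Sertoli transcripts but not how pure the sorted cells were.

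**Figure D1:**
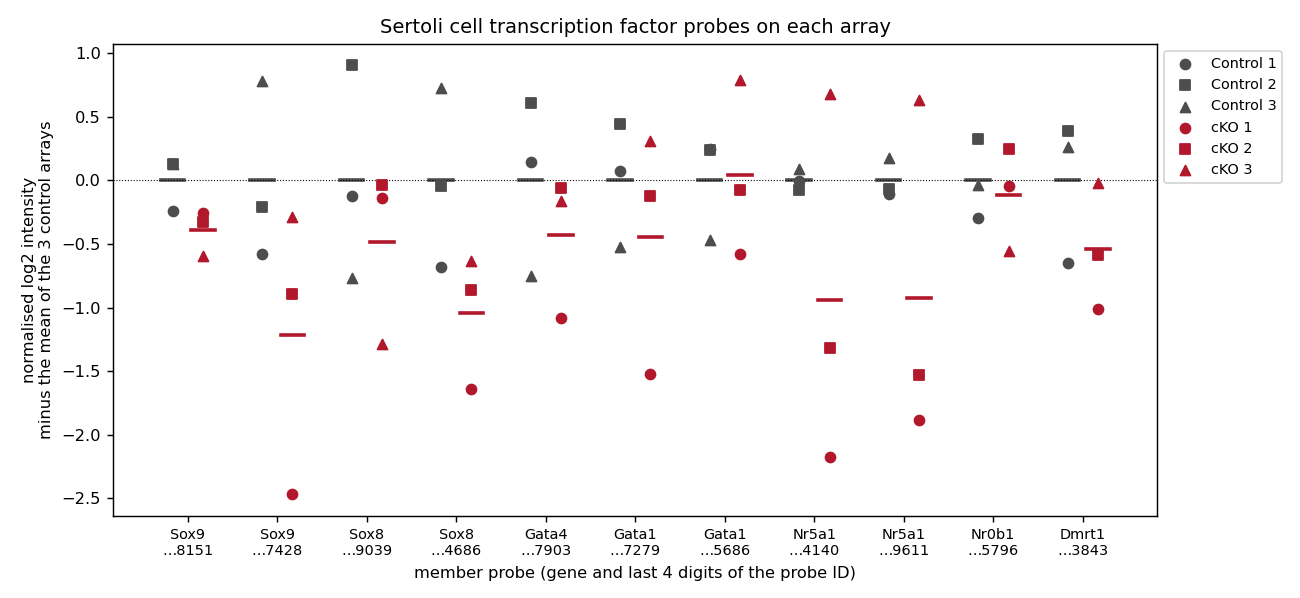
Each point is the normalised log2 intensity of a member probe on an array minus the mean of the 3 control arrays, with controls in grey, cKO in red, the marker shape giving the replicate number and the bars the group means. On 8 of the 11 probes the lowest array is cKO replicate 1, as on 22.4% of all tested probes, which are not drawn. Control replicate 3 is lowest on 0 of the 11 and on 41.4% of all tested probes. The cKO arrays of Sox9 probe ILMN_2778151 all lie below the controls.

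By value, 10 of the 11 member probes were lower in cKO, with differences from -1.22 to -0.12 log2 units, and 1 Gata1 probe was at 0.04. All 11 passed the filter of detection on at least 3 of 6 arrays. No member probe passed an adjusted p under 0.05 in limma, and 1 of 11, for Sox8, had an unadjusted p under 0.05, with a lower value in cKO. Of all 21805 tested probes 0.142% were called, each of these 31 higher in cKO and 0% lower. An unadjusted p under 0.05 was reached by 6.39% of tested probes in either direction and by 1.76% with lower values in cKO. With the replicate number as a block, 0 probes were called. The median difference of the 7 measured members, each by its brightest probe, was -0.45, beside 0.12 over 12277 genes with a tested probe. Without cKO replicate 1 and Control replicate 3 these medians were -0.27 and -0.03. On arrays of sorted cells, fewer cells of a type and less RNA per cell cannot be told apart.

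**Figure D2:**
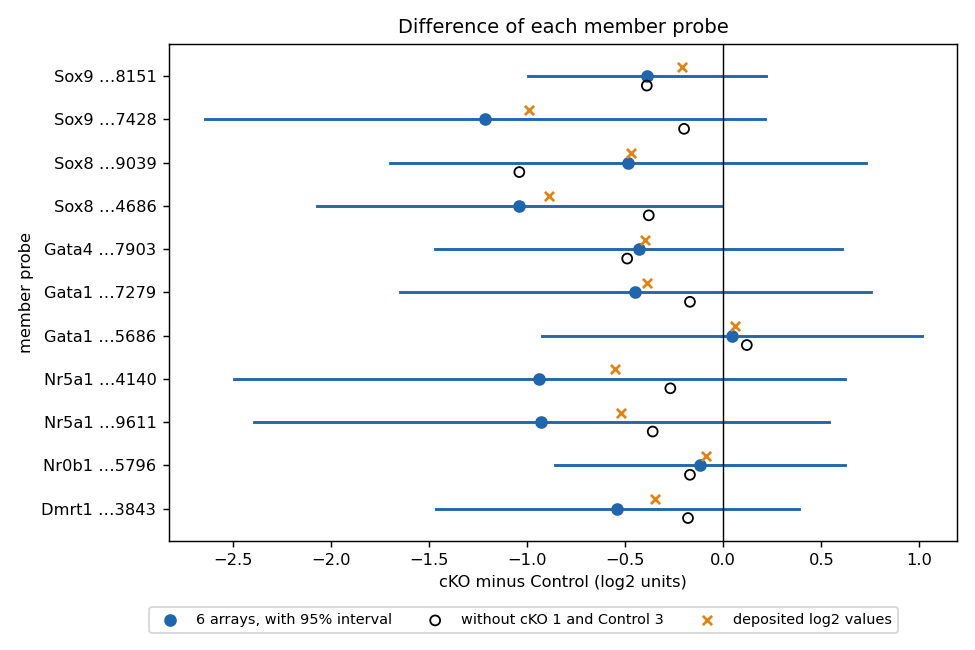
Filled points give the difference of each member probe, cKO minus Control in log2 units, with limma's 95% interval as a line. Open circles leave out cKO replicate 1 and Control replicate 3, and crosses use the deposited log2 values. Every interval but that of Sox8 probe ILMN_2784686 spans 0, and that probe moves from -1.04 to -0.38 without the 2 arrays.

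Sox9, the factor that commits the supporting lineage to the Sertoli fate, was also the basis of the reporter used for sorting, and the part of the gate in its level was not tested. Its bright probe, ILMN_2778151, had normalised log2 values of 11.82, 11.75 and 11.48 in cKO, in the order of the replicate numbers, against 11.83, 12.20 and 12.20 in the controls. The 3 cKO arrays were all below the 3 controls, the closest pair being 11.82 and 11.83. The difference was -0.39 ± 0.26 (SE), with a 95% interval of -0.99 to 0.22 and an adjusted p of 0.766 in limma. Arrays of the groups did not overlap in this direction for 4.01% of tested probes, and in either direction for 12.1%. Before normalisation the intensities were 4187, 3922 and 2649 in cKO and 3787, 4155 and 4208 in the controls, which overlap. They also overlap with median scaling, where the difference was -0.19, and with the deposited log2 values, where it was -0.21.

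The second Sox9 probe, ILMN_3007428, carries the same RefSeq transcript in the annotation, NM_011448, but was much dimmer and more variable. It read 6.14, 7.71 and 8.32 in cKO, and 8.03, 8.40 and 9.39 in the controls, with the groups overlapping through cKO replicate 3. The difference of -1.22 ± 0.61 (interval -2.64 to 0.21, adjusted p 0.766) was the most negative of the set. It was -0.59 without cKO replicate 1 and to -0.20 without that array and Control replicate 3. The gap between the dim and the bright probe was -5.68 on cKO replicate 1, -2.81 on Control replicate 3, and between -4.05 and -3.16 on the rest. Over 4247 genes with at least 2 tested probes, that gap lay more than 1 log2 unit from the gene's own median on 24.4% of genes for cKO replicate 1 and 19.1% for Control replicate 3, against 1.4% to 8.8% on the other arrays. The part of this array-wide spread in the second Sox9 probe was not tested.

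Sox8, the SOX factor that shares SOX9's group and can stand in for it in the testis, had the smallest p of the set. Its brighter probe, ILMN_2784686, read 6.93, 7.71 and 7.94 in cKO and 7.89, 8.53 and 9.30 in the controls. The groups overlapped only between cKO replicate 3 and Control replicate 1. The mean was 7.53 ± 0.53 (SD, n = 3) in cKO and 8.57 ± 0.71 in the controls, a difference of -1.04 ± 0.44, or a ratio of 0.485 with an interval of 0.238 to 0.991. Its unadjusted p was 0.0479 in limma and its adjusted p 0.766. Compared within replicate numbers the differences were -0.95, -0.82 and -1.36, so all 3 pairs were lower, and with the number as a block limma gave an adjusted p of 0.214. The difference was -0.68 without Control replicate 3 and -0.38 without the 2 arrays that stood apart.

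The other Sox8 probe, ILMN_1259039, is annotated to a cDNA clone, AK087471, rather than to the RefSeq transcript NM_011447. It read 7.31, 7.41 and 6.16 in cKO and 7.32, 8.35 and 6.68 in the controls, with the lowest cKO value on replicate 3 and not on replicate 1. The difference was -0.48 ± 0.52 (interval -1.70 to 0.73), and it moved to -0.03 without Control replicate 2, to -0.09 without cKO replicate 3 and to -1.04 without the 2 arrays. Across the 6 arrays the 2 Sox8 probes correlated at -0.068, and at 0.62 over the 4 that did not stand apart. These are descriptions over arrays that share the same RNA. Among member probes, the brighter Sox8 probe correlated most with the dim Sox9 probe over 6 arrays, at 0.949. Over the 4 arrays that value was 0.785, below those with Gata4 (0.896), Dmrt1 (0.883) and Gata1 probe ILMN_1237279 (0.865).

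GATA4, the zinc finger factor that works with WT1 and NR5A1 on Sox9 and later on hormone genes, had 1 probe. Gata4 read 6.36, 7.38 and 7.28 in cKO and 7.58, 8.05 and 6.69 in the controls. The groups overlapped, with the lowest value of all on cKO replicate 1 and the lowest control on replicate 3. The difference was -0.43 ± 0.44 (interval -1.47 to 0.61, adjusted p 0.787). It shrank to -0.11 without cKO replicate 1 and to -0.13 without Control replicate 2, and grew to -0.81 without Control replicate 3.

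Gata1, which Sertoli cells switch on after birth and which blood cell precursors need for red cell formation, had 2 probes that gave opposite signs. Probe ILMN_1237279 read 6.41, 7.81 and 8.24 in cKO and 8.01, 8.38 and 7.41 in the controls, a difference of -0.45 ± 0.51 (interval -1.65 to 0.75). Only cKO replicate 1 was below all controls, and without it the difference was 0.09. Probe ILMN_2935686 read 5.85, 6.36 and 7.22 in cKO and 6.68, 6.67 and 5.96 in the controls, a difference of 0.04 ± 0.41 (interval -0.92 to 1.01). It turned to -0.33 without cKO replicate 3 and to -0.19 without Control replicate 3. Despite the opposite means, the 2 probes correlated at 0.839 over the 6 arrays. Of the 9 annotated erythroid, mast and megakaryocyte markers, 3 were detected on all arrays and 3 on none, the latter including the mast cell genes Cpa3 and Tpsb2. The summed level of the 9 ranged from 3221 to 6903 in cKO and from 4383 to 8145 in the controls and was lowest on cKO replicate 1. Most of this sum is 1 gene, Alas2, at 11.36 to 12.87 over the arrays, while Hba-a1 read 6.76 to 8.55. The part of such cells in the Gata1 values was not tested.

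Nr5a1, which encodes the receptor SF1 that drives steroid and Sertoli genes, varied most within the cKO group. Probe ILMN_1254140 read 4.68, 5.54 and 7.54 in cKO, and the controls read 6.85, 6.78 and 6.95. Both the lowest values and the highest value of the 6 were cKO arrays, with an SD of 1.46 (n = 3) in cKO and 0.085 in the controls. The difference was -0.94 ± 0.67 (interval -2.50 to 0.62, adjusted p 0.766). It ran from -0.32 without cKO replicate 1 to -1.75 without cKO replicate 3, and was -0.55 with the deposited log2 values. On cKO replicate 1 the probe was not above background. The second probe, ILMN_2749611, read 4.52, 4.87 and 7.03 in cKO and 6.29, 6.33 and 6.58 in the controls, was above background on 1 cKO array, and differed by -0.93 ± 0.63. The 2 probes followed each other at 0.987 over the 6 arrays and 0.998 over the 4.

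Leydig cells, the steroid-making cells between the tubules, also express Nr5a1 and Gata4. Their 8 annotated markers summed, on the linear normalised scale, to 8743, 2398 and 4763 in cKO and to 1273, 1444 and 3080 in the controls. The sum was highest on cKO replicate 1, where Nr5a1 was lowest, while cKO replicate 3 and Control replicate 3, the next highest sums, had the highest Nr5a1 values; the part of Leydig cells in the Nr5a1 and Gata4 values was not tested. Of the 5 tested markers 4 had positive differences, none called in limma, with a median of 1.26. The cholesterol transporter gene Star, above background on no control array, was at least 3.11-fold higher in cKO (adjusted p 0.151 in limma). Star passed the detection filter by its cKO arrays alone, so its place in that count depends on the filter. Hsd3b1 was detected on no array.

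Nr0b1, the gene of the orphan receptor that checks NR5A1, was near the detection limit. Its probe read 5.24, 5.53 and 4.73 in cKO and 4.99, 5.61 and 5.25 in the controls, and was above background on 1 cKO and 2 control arrays. The groups overlapped throughout. The difference was -0.12 ± 0.32 (interval -0.86 to 0.62, adjusted p 0.912), and it turned to 0.10 without cKO replicate 3 and to 0.05 without Control replicate 2.

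Dmrt1, whose protein guards the male fate of Sertoli cells and also acts in spermatogonia, was dim but above background on 2 cKO and 3 control arrays. It read 4.83, 5.25 and 5.82 in cKO and 5.19, 6.23 and 6.10 in the controls. The groups overlapped through Control replicate 1. The difference was -0.54 ± 0.40 (interval -1.47 to 0.38, adjusted p 0.766), all 3 replicate numbers had the lower value in cKO, and it was -0.18 once cKO replicate 1 and Control replicate 3 were left out. Summed markers of spermatogonia were 5149 to 6235 in cKO and 4325 to 4866 in the controls, without overlap, with Zbtb16 detected on no array. Much of this sum is Dazl, at 11.14 to 11.78 in cKO and 10.06 to 11.29 in the controls, which overlap. Uchl1, also bright, went the other way at -0.46. By gene, 7 of 8 tested markers had positive differences, with a median of 0.65, or 0.30 without those 2 arrays. The part of spermatogonia in the Dmrt1 values was not tested.

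Within replicate numbers, 5 of the 11 member probes were lower in cKO in all 3 pairs: both Sox9 probes, both Sox8 probes and Dmrt1. Over all tested probes 15.3% were lower in all 3 pairs and 26.7% higher. For 2 of the 5 the first pair hardly differed, at -0.01 for Sox9 probe ILMN_2778151 and 0.00 for Sox8 probe ILMN_1259039. In the deposited log2 values that Sox9 pair read 0.36 in cKO and 0.06 in Control, and that Sox8 pair 0 in each. The Gata4, Gata1 and Nr5a1 probes shared another order, lower in pairs 1 and 2 and higher in pair 3. The standard error over the 23 to 58 beads of a member probe, a measure of reading error within an array, was 2.27% to 10.4% of its intensity, with a median of 4.51%. For each of the 4 genes with 2 probes, the difference between its probes in their cKO response was tested with an exact two-sided permutation test over the 6 arrays, which cannot go below 0.1. In that exact permutation test the dim Sox9 probe differed from the bright probe by a further -0.83 (p = 0.4), the dimmer Sox8 probe by 0.56 (p = 0.6), the dimmer Gata1 probe by 0.49 (p = 0.2) and the dimmer Nr5a1 probe by 0.01 (p = 1). Adjusted over the 4 tests, the exact permutation p-values were 0.8, 0.8, 0.8 and 1. The test does not use the replicate numbers: within pairs 1 to 3 the gap of the dimmer to the brighter probe differed by -1.88, -0.25 and -0.35 for Sox9 and 0.78, 0.28 and 0.42 for Gata1, each with 1 sign in all 3 pairs, and by 0.95, -0.12 and 0.85 for Sox8 and 0.40, -0.23 and -0.14 for Nr5a1, with mixed signs.

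Genes with the most similar profile over the 6 arrays were named for each member by Pearson correlation of the brightest probes, as a description without a test. The bright Sox9 probe was followed most closely by Fbxl14, Mysm1 and Tmx4 (0.998, 0.994 and 0.992), and Sox8 by Syap1, Hdac3 and Axin1 (0.998, 0.998 and 0.997). Gata4 was followed by Ece1, Nhlrc3 and Kifc2 (0.994, 0.993 and 0.993), Gata1 by Gse1, Akap10 and Clcn7 (0.993 for each), and Nr5a1 by Rnf215, Tmem131 and Vac14 (0.990, 0.990 and 0.989). For Nr0b1 they were Plec, Dnaja2 and Dynlt3 (0.993, 0.984 and 0.983), and for Dmrt1 Sfxn2, Wt1os and Cst3 (0.991, 0.982 and 0.978). With 6 arrays and 11686 candidate genes such values are common: between 19 and 116 genes exceeded 0.95 for each member. Wt1os, the antisense transcript beside the unmeasured Wt1, was matched by its own annotation and differed by -0.35 ± 0.28, with a mean of 5.08 in cKO and 5.44 in the controls.

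**Figure D3:**
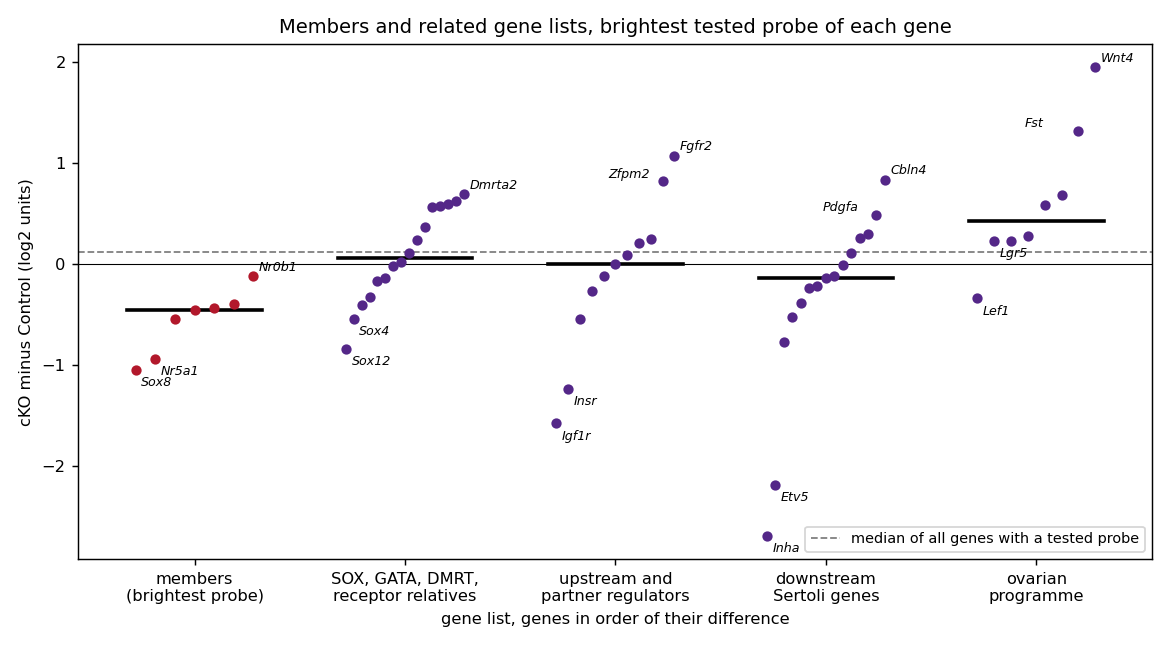
Each point is the difference of a gene, cKO minus Control in log2 units, by its brightest tested probe, in order within its list, with black bars for list medians and a dashed line for the median of all genes with a tested probe. The 7 members lie below 0 and 7 of 8 ovarian genes above it, where 61.3% of all genes lie above 0. Of these ovarian genes, Wnt4 passed the detection filter by its cKO arrays alone. Without cKO replicate 1 and Control replicate 3, which is not drawn, 5 of 8 ovarian genes and 46.3% of all genes lie above it.

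Relatives of the members were spread on both sides of 0. Of 25 SOX, GATA, DMRT and orphan receptor relatives 16 were tested, 9 with positive and 7 with negative values and none called in limma, with a median of 0.07 beside 0.12 for all genes. Sox12, of the SOXC group, had the smallest p at -0.84 ± 0.31 (adjusted p 0.709), reading 10.34, 10.94 and 10.66 in cKO and 11.09, 11.48 and 11.87 in the controls without overlap. Without the 2 arrays that stood apart Sox12 was at -0.49, and its other probe gave -0.29. Sox17 and Sox18, known from endothelium, were at 0.57 and 0.60, or 0.21 and 0.30 without those arrays, and Dmrtc2 was at 0.57. Endothelial markers had summed levels of 624 to 953 in cKO and 284 to 485 in the controls, with Kdr detected on no array. All 6 of 6 tested genes had positive values, none called, with a median of 0.86, or 0.45 without the 2 arrays that stood apart. The part of endothelial cells in the Sox17 and Sox18 values was not tested.

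Among 11 tested upstream and partner regulators, 6 had positive and 5 negative values, the median was 0.00 and none was called. Insr and Igf1r, the insulin family receptors needed for Sry and Sox9 activation in the fetal gonad, were at -1.23 ± 0.29 (adjusted p 0.302) and -1.57 ± 0.51 (adjusted p 0.603). Insr read 8.55, 9.09 and 8.57 in cKO and 9.80, 10.29 and 9.81 in the controls, without overlap, and was at -1.21 without the 2 arrays that stood apart, while Igf1r was at -0.79 without them. The second probes of Insr and Igf1r gave 0.12 and 0.39. Fgfr2, a receptor of FGF9, was at 1.08 ± 0.43 (adjusted p 0.747), and Cited2, a cofactor of WT1, at -0.54 ± 0.30 (-0.34 without those arrays). The other Cited2 probes were less certain, at -1.82 ± 0.92 and -1.66 ± 1.07, each with an adjusted p of 0.766 in limma.

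Sertoli genes downstream of the factors gave 10 negative and 5 positive values among 15 tested, where 61.3% of all genes with a tested probe had positive values, with a median of -0.14 and none called. Dhh, the hedgehog ligand of Sertoli cells, was at -0.52 ± 0.27, and Pdgfa, a growth factor ligand, at 0.49 ± 0.26, both with groups that did not overlap. In all 2 genes did not overlap in each direction, Dhh and Defb19 with lower and Pdgfa and Fgf9 with higher values in cKO. Over all 12277 genes with a tested probe, 531 did not overlap with lower and 1174 with higher values. Defb19 differed by only -0.14 near the top of the scale, with means of 14.35 in cKO and 14.49 in the controls. Fgf9 differed by 0.30 near background, with means of 5.34 and 5.04. The lowest values came from cKO replicate 1: Inha, the inhibin alpha subunit, read 5.42, 9.92 and 12.24 in cKO, and 11.59, 11.20 and 12.85 in the controls. Etv5, an ETS factor of the stem cell niche, likewise read 4.45, 8.19 and 9.89 in cKO and 9.26, 9.60 and 10.21 in the controls. Without the 2 arrays that stood apart Inha was at -0.32 and Etv5 at -0.39.

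The ovarian programme, which SOX9 and DMRT1 are known to hold down, had 8 of 16 genes tested, 7 with positive values and a median of 0.43. Positive values were found for 7524 of all 12277 genes, or 61.3%. Without cKO replicate 1 and Control replicate 3 the median was 0.15 and 5 of 8 were positive, beside 46.3% of all genes. In that setting Axin2 was at -0.21, Lgr5 at -0.77 and Lef1 at -0.60. The 5 positive genes were Wnt4 at 2.33, Fst at 1.65, Irx5 at 0.30, Hsd17b1 at 0.24 and Znrf3 at 0.07. None was called in limma, and 2 had positive values at an unadjusted p under 0.05, as did 5.96% of all genes. These 2 were Wnt4, detected on 3 cKO and 0 control arrays, and Fst, detected on 3 and 1. Wnt4 thus passed the detection filter by its cKO arrays alone, so the counts of this list depend in part on that filter. Wnt4, the ovary-promoting ligand, stood above background on no control array, read 5.83, 7.21 and 7.03 in cKO and 4.59, 5.0 and 4.63 in the controls, and was at least 3.14-fold higher in cKO (adjusted p 0.208). Fst, the activin-binding follistatin, read 6.29, 5.94 and 6.44 in cKO and 4.52, 4.55 and 5.62 in the controls, a difference of 1.33 ± 0.37 (adjusted p 0.440). The groups did not overlap for these 2 genes, as for 8.04% of tested probes in this direction. Irx5 and Znrf3 were at 0.59 and 0.69 with overlap. The gene of the ovarian factor FOXL2 did not pass the detection filter.

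**Figure D4:**
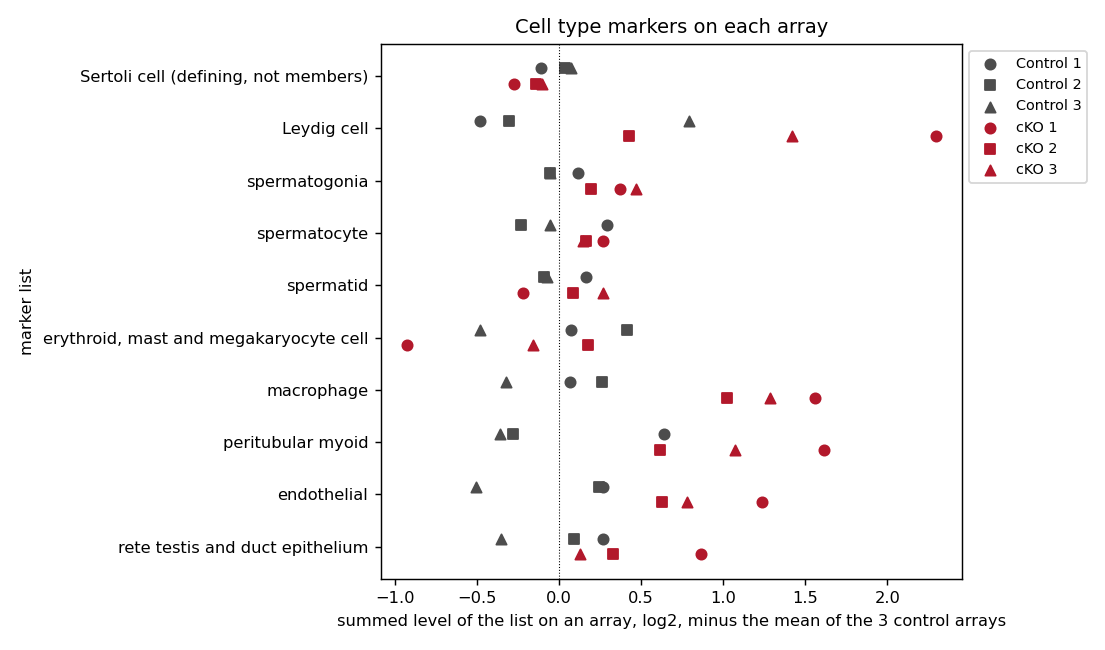
Points give the summed normalised level of each marker list on an array, as log2 minus the mean of the 3 control arrays, with controls in grey, cKO in red and shapes for replicate numbers. Macrophage, endothelial and spermatogonia sums lie higher on all cKO arrays than on any control array, and Leydig sums are highest on cKO replicate 1.

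Several marker sums of other testis cells ran higher in cKO, though those of the peritubular myoid and rete testis lists overlapped between the groups. Summed macrophage markers were 563 to 815 in cKO and 221 to 331 in the controls, with Ptprc detected on no array and 1 of 6 annotated markers detected on all 6. That marker, Cd74, carries most of the sum, at 8.65 to 9.04 in cKO and 6.66 to 7.54 in the controls. Lyz2, Cd14 and Csf1r were each detected on 2 arrays. Peritubular myoid markers summed to 9323 to 18616 in cKO and 4742 to 9458 in the controls, with Tagln and Cnn1 detected on none. Rete testis and duct markers were 364 to 609 and 261 to 402, with Pax8, Epcam, Krt19 and Cdh16 detected on none. By gene, the median difference was 0.76 for the myoid list and 0.43 for the rete list. Without cKO replicate 1 and Control replicate 3 these medians were 0.49 and 0.07. Spermatocyte sums (76120 to 82837 in cKO, 58502 to 84110 in the controls) and spermatid sums (66128 to 92531 and 72156 to 86201) overlapped, and Sycp3 was detected on no array. These sums are carried by probes near the top of the scale on every array, such as Ldhc (14.66 to 14.90) and Prm1 (14.72 to 14.90), so their overlap says little about these cells. By gene, 6 of 6 tested spermatocyte markers had positive differences, with a median of 0.28, and 3 of 6 spermatid markers, with a median of 0.10, none called. The summed Sertoli markers outside the member set, likewise led by the bright Aard and Cldn11, were 76027 to 85534 in cKO and 85045 to 96662 in the controls. All 10 tested had negative differences (Inha and Dhh among them), none called, with a median of -0.38 (-0.25 without the 2 arrays). These were uneven: Aard at -0.01 ± 0.23, Cldn11 at -0.07 ± 0.23 and Rhox5 at -0.08 ± 0.31 lay near 0. Trf was at -2.54, or -0.55 without the 2 arrays, and read 4.57, 7.77 and 9.97 in cKO. The part of these other cells in the member differences was not tested.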

How the data were processed

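Illumina bead arrays of 3 cKO and 3 Control samples were compared, grouped by their titles. Per the file headers, each deposited scanner table gives a linear mean intensity per probe, its spread over beads, a count of beads and a detection score from 0 to 1. The deposited series table holds log2 values, which were found to be log2 intensities scaled to the upper quartile of the array and then centred on the probe's own median; no source used here names the tool. Per the submitters' processing notes BeadStudio was used, with no version stated. All 45281 entries were joined to scanner probes through that formula, with a largest distance of 0.000688, and genes came from the platform annotation (34885 probes with 1 symbol, 18 with several and 10378 with none). Which part of a transcript a probe matches was not determined.

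Intensities were background-corrected and quantile-normalised by neqc in limma 3.58.1 (R 4.3.3; offset 16), and probes with a detection score over 0.95 on at least 3 of 6 arrays were tested. Groups were compared by lmFit and eBayes, two-sided, with Benjamini-Hochberg adjustment over all 21805 probes. The fit was tested on simulated data. Named were all member probes, up to 4 genes per related list with the smallest p, and the 3 genes most correlated with each member; other genes were chosen after their values were seen. Gene lists use the brightest tested probe of a gene. A value "at least N-fold higher" sets the cKO mean against a control mean in which any array below its lowest detected signal is raised to that signal. The members, lists and rules were chosen with earlier results of these data known.

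Both groups carry replicate numbers 1 to 3. Deviations from group means correlated at 0.262, 0.410 and 0.473 between same-numbered arrays over the tested probes, so the numbers were taken as pairs, from these correlations alone; cKO replicate 1 correlated with Control replicate 2 at 0.263. Alternatives were other background, scaling and detection settings, 1 probe a gene, the replicate block, each array left out and 2 arrays left out together.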

Additional observations from a re-analysis of the deposited data

How the results depend on the processing

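No member probe was called in limma in any of the 15 alternatives, and the smallest adjusted p of a member was 0.170, without cKO replicate 3. Only 7 of the 11 member probes were tested when detection on all 6 arrays was required, and 7 with 1 probe a gene. Where the replicate block was used or any 1 Control array was left out, 0 probes of the whole table were called. Over the settings 0 to 4 of the member probes had an unadjusted p under 0.05 in limma. The 4 were reached without cKO replicate 3, both Nr5a1 probes among them. In that setting 2338 of all 21805 tested probes had such a p. Called probes over the whole table, 31 in the reported fit, numbered 12 without background correction, 12 at offset 50, 1 without the filter on dim probes, 56 with 1 probe a gene, 0 with the replicate block, 0 to 15 with each array left out and 6 without cKO replicate 1 and Control replicate 3 together. The replicate block changed no call of a member or list gene. Leaving out each array in turn moved Gata1 probe ILMN_1237279 between -0.83 and 0.09, Gata1 probe ILMN_2935686 between -0.33 and 0.36, and Nr0b1 between -0.30 and 0.10, so these 3 have no settled sign; the other 8 member probes kept theirs. Scaling moved the median of all probes from 0.08 to 0.13 at most. Nr5a1, Nr0b1 and Dmrt1 lie close to background, where differences depend on the offset: at offset 50 they were -0.56, -0.06 and -0.32. The 3 arrays a group limit the precision to the intervals given.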
